A study of Mus musculus with 8 samples.

Results

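The narrow gene-body regions were the stretches of chromatin enriched in the control ChIP library that were under 3000 bp wide, had every summit inside a protein-coding gene, and kept more than 1000 bp from any gene's 5' end and 2000 bp or more from a protein-coding gene's 3' end. They numbered 8848 of 16995 control regions, or 52.1%, and were chosen by their width and position alone, so those values describe them and are not results. All came from 1 library. The libraries were made from hepatocytes, the metabolic cells of the liver, isolated from mice, cultured for 24 h and given 100 nM glucagon, the fasting hormone, for 12 h. Controls carried the floxed allele only (Lcmr1 f/f), and knockouts carried the same allele with albumin-cre, in which the albumin promoter drives Cre recombinase in hepatocytes and leaves other liver cells with an intact gene. RNA was sequenced in 3 libraries per genotype and ChIP in 1 per genotype. The sources used here give no strain, sex or age, and every library had glucagon, so the response to the hormone cannot be read.

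The deleted gene, Lcmr1, is now called Med19 and encodes part of the Mediator complex. Mediator bridges transcription factors bound to DNA and RNA polymerase II at gene starts. RNA polymerase II pauses just past the start and then travels through the gene body, while RNA polymerase III makes tRNAs and other small RNAs from short genes of their own. Enhancers lie outside genes and within introns, and many genes have further starts inside the outermost transcript.

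What the antibody bound is not settled by the labels, since the sample titles name RNA polymerase III and the series text names Lcmr1. Among the 430 tRNA genes of the RefSeq table, the main genes of RNA polymerase III, 4 were overlapped by any control region. The same count was 12 of 1004 snRNA genes and 13 of 1340 snoRNA genes. Narrow gene-body regions overlapped 0, 1 and 1 of these genes, but the rule removes regions near any annotated gene's 5' end, so these counts carry no information on the antibody. The regions are therefore described below without naming the protein.

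Sequences are shown for the places where the strongest regions coincided with a start of their host gene that lies inside the outermost annotated gene. Of the 10 regions with the highest fold, 4 had their strongest summit within 500 bp of such a start in RefSeq (GRCm38.p6, the same build as mm10). The 200 bases upstream of those starts follow, 5' to 3' on the gene's strand, with matches to 3 of the motifs searched in capitals. The motifs in capitals are the SP/KLF motif GGGCGG (or CCGCCC on the other strand), the TATA box TATAAA and the C/EBP motif TTGCNNAA.
Eef1a1, chr9:78481725-78481924, minus strand: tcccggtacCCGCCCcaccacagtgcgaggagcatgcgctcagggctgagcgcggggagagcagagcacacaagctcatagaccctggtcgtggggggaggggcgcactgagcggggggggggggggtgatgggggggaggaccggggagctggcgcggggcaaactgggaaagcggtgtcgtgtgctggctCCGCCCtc
Per1, chr11:69098749-69098948, plus strand: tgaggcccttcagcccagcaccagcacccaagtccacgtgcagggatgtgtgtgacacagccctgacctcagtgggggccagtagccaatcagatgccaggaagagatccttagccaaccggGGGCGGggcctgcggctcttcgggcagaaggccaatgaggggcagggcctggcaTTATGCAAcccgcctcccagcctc
Tsc22d1, chr14:76504310-76504509, plus strand: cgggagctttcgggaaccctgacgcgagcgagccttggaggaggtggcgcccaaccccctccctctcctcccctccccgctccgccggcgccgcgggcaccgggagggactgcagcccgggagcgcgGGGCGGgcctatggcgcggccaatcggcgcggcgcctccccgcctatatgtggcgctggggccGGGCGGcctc
H3f3b, chr11:116024505-116024704, minus strand: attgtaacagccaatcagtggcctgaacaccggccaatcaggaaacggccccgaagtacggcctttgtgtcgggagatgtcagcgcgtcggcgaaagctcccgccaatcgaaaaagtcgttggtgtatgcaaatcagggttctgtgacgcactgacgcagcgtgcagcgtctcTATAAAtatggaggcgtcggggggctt
The summit lay 71 bp from the start in Eef1a1, 78 bp in Per1, 65 bp in Tsc22d1 and 70 bp in H3f3b. An SP/KLF match stood in the Eef1a1, Per1 and Tsc22d1 stretches, and a TATA box stood in the H3f3b stretch. GC content was 72.0% in the Eef1a1 stretch, 64.5% in Per1, 78.0% in Tsc22d1 and 56.0% in H3f3b. A match describes letters in these windows and not bound factors.

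In all, 372 of the 8848 regions, or 4.20%, had their strongest summit within 500 bp of a RefSeq start, and 303 lay within 200 bp. For 320 of them the start carried the symbol of the host gene. Their median fold over background was 5.91, against 4.69 for the other 8476. Fold is the deposited peak list's own enrichment over background in that library. In the 300-base RefSeq windows at 366 of these starts, the motif GGGCGG was present on either strand in 68.0%, against 78.2% of the 3247 windows at narrow gene-start regions and 35.7% of all 32851 windows. The ETS motif CCGGAAG was present in 13.4% of the gene-body windows and in 19.7% at gene starts. The AP-1 motif TGANTCA was present in 7.10%, against 3.82% at gene starts and 7.81% of all windows. The cyclic AMP response element TGACGTCA, the site of the CREB family through which glucagon acts, stood in 2.73%, against 4.68% at gene starts and 1.79% overall. TATAAA stood in 6.83%, against 6.04% at gene starts and 13.6% overall. The B box of tRNA genes, GTTCGANNC, stood in 1.09%, against 0.843% overall. Median GC content was 62.7% in the gene-body windows, 64.7% at gene starts and 52.7% over all windows, and the shares move with it.

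The regions were small and mostly single. Their median width was 369 bp, with quartiles of 264 and 563 bp, and 8038 had 1 summit. The median fold was 4.75, with quartiles of 3.96 and 5.70 and a range of 1.55 to 22.6. Narrow regions at gene starts had a median fold of 5.96, those at gene ends 4.77 and the 323 broad regions 12.7. The rule cut through a continuum: the region just inside the limit from a 5' end, in Mtfr1, was 1001 bp away with a fold of 12.1, and the one just outside, in Arhgap5, was 1000 bp away with a fold of 4.77. At the width limit the nearest members and exclusions were a 2954 bp region in Plpp3 and a 3004 bp region in Midn.

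Within their host genes the regions became denser towards the 3' end. Over the 8679 regions with a single host, the median distance from the host's 5' end was 31.6 kb, with quartiles of 13.2 and 71.7 kb, and 773 (8.91%) were within 5 kb. The rule sets a lower limit of 1000 bp to these distances, which describe the regions and are not a result. Density was taken per megabase of host gene, less the host's own first 1000 bp and last 2000 bp. Stretches that the rule removes near the ends of other genes were not taken out of these lengths. It was 32.6 in the decile nearest the 5' end, 53.7 in decile 5, 69.8 in decile 9 and 64.8 in decile 10. Without the 5 hosts with the most regions, the same deciles held 30.4, 49.95, 67.4 and 61.2 per megabase. Median fold moved the other way, from 4.91 in the decile nearest the 5' end to 4.57 in the last.

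**Figure D1:**
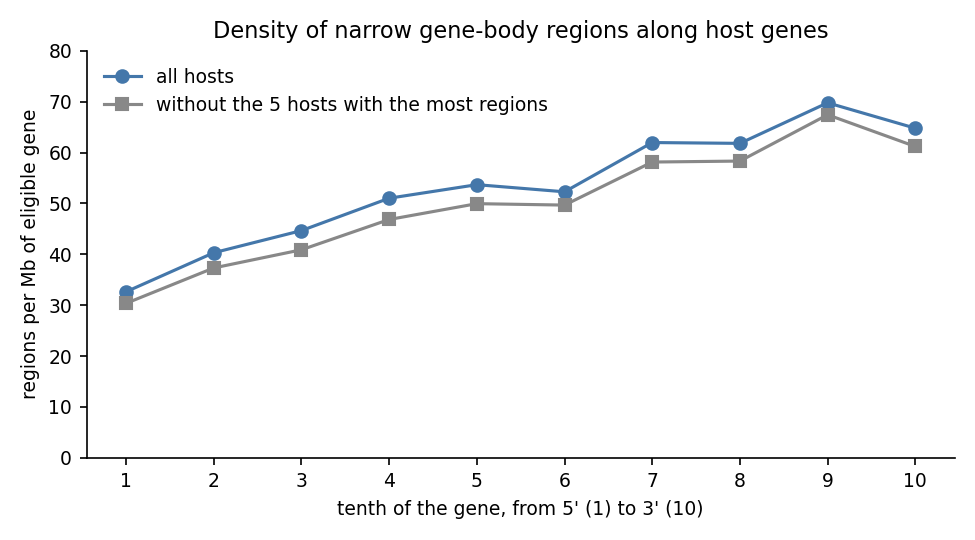
Density of narrow gene-body regions in each decile of the host gene, from 5' to 3'. Lines show all hosts and the hosts without the 5 with the most regions. The unit is regions per Mb of host gene, less its own first 1000 bp and last 2000 bp (eligible gene on the axis). Density rises from 32.6 in decile 1 to 69.8 in decile 9 with all hosts.

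The regions were gathered in few genes. They fell in 2233 protein-coding genes, 13.0% of the 17132 in the table. Of these hosts 1060 held 1 region, 459 held at least 5 and 201 held at least 10. Those 201 genes held 4370 regions, or 49.4% of all. Host genes also carried enrichment at their ends: 53.5% had a control summit within 1000 bp of their own 5' end, against 22.0% of protein-coding genes without a gene-body region, and 46.4% against 9.69% had one within 2000 bp of their own 3' end. For hosts of 10 or more regions those shares were 59.2% and 80.6%. RNA level was unlike in hosts and genes without a region, with a median of 66.0 against 4.05 CPM (scaled counts) in controls. The part of RNA level in the enrichment at gene ends was not tested.

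The gene with the most regions was Adk, adenosine kinase, with 199, which covered 45.9% of its 396 kb with a median gap of 0.358 kb between neighbours. Its first region lay 23.7 kb from the 5' end, and 12 broad regions stood among them. Zbtb16, a zinc-finger transcription factor, held 123 regions over 49.7% of its 182 kb. Dpyd, which starts the breakdown of pyrimidines, held 122, but they covered 5.97% of its 871 kb, and a stretch of 125 kb between neighbours had none. In Cyp7b1, an oxysterol hydroxylase of bile acid synthesis, 108 regions covered 38.4% of the gene. Mtus1, a microtubule-associated protein, held 71 over 27.4%. The median fold within these genes was 5.88 in Adk, above the upper quartile of all narrow gene-body regions, 4.84 in Zbtb16, 4.63 in Dpyd, 5.26 in Cyp7b1 and 4.99 in Mtus1.

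**Figure D2:**
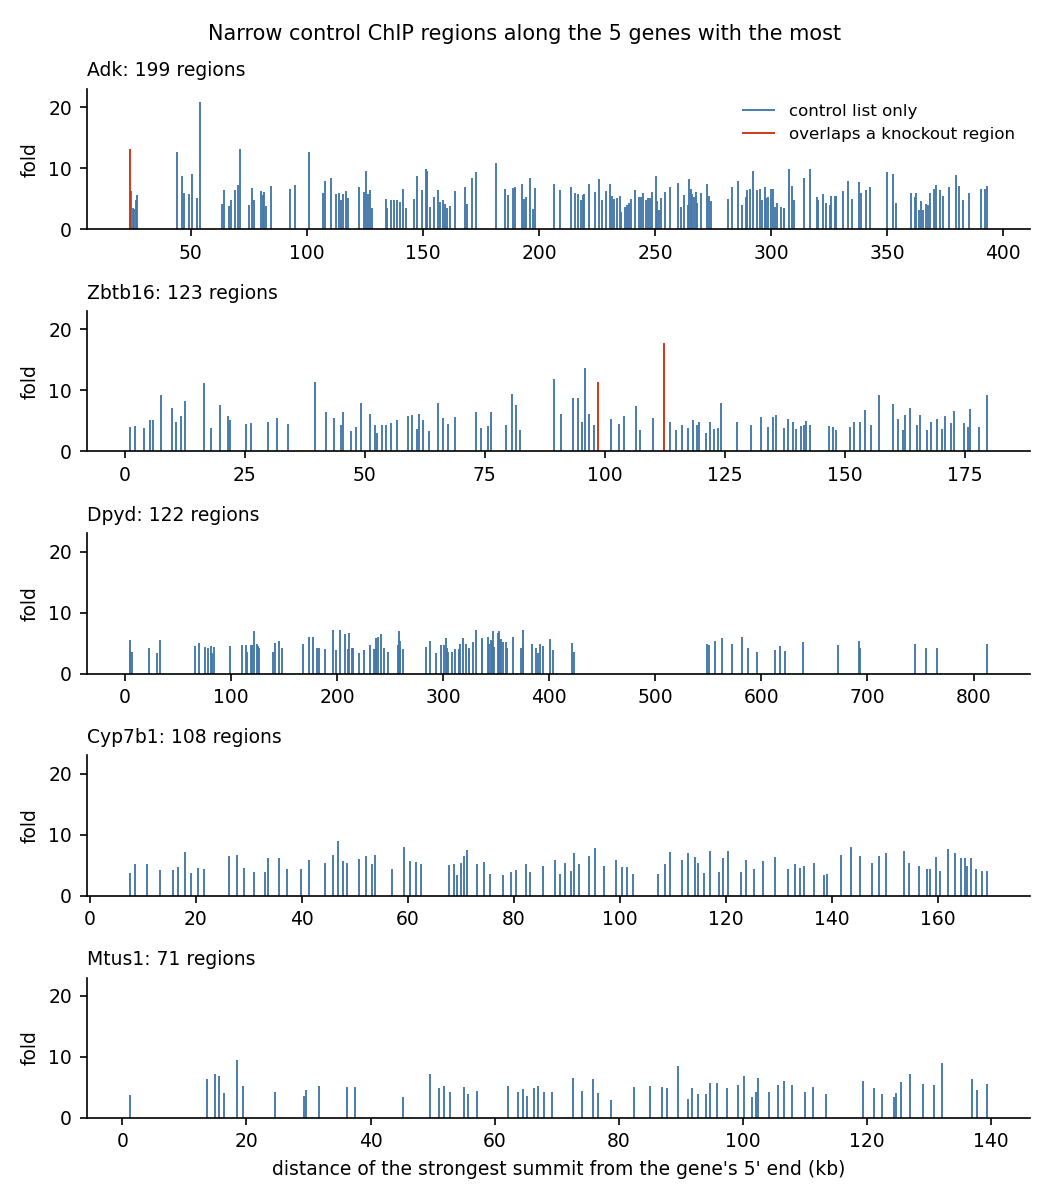
Position (distance of the strongest summit from the gene's 5' end, kb) and fold over background of each narrow region in the 5 genes with the most, 1 panel per gene, with regions that overlap a knockout region in red. Regions run through nearly the whole of Cyp7b1 and Zbtb16, while Dpyd has a gap of 125 kb.

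Few of the regions were also in the knockout list. The knockout library gave 1309 regions against 16995 in the control, and 230 of the 8848 narrow gene-body regions, or 2.60% (95% exact binomial interval 2.28 to 2.95%, counting error only), shared at least 1 base with one. The share depended on the limits set: it was 1.01% where 50% of the region had to be covered, 1.69% for regions under 1000 bp wide and 6.86% for those with a -log10 q of 5 or more. The share was 5.02% for narrow regions at gene starts, 4.75% at gene ends and 48.0% for broad regions. Seen from the knockout list, 244 of its 1309 regions (18.6%) touched a narrow gene-body region and 1122 (85.7%) touched any control region. With 1 library per genotype there is no test, and the lists' lengths, library depth and enrichment cannot be told apart from genotype.

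Regions with a high control fold were found in both lists more often than weaker ones, though most of them were not. By quintile of control fold, from the lowest, 1.07%, 0.791%, 0.960%, 1.98% and 8.19% overlapped a knockout region, or 145 of 1770 in the highest. Of the 10 strongest regions 7 did, and of the 100 strongest 38 did. Regions at a RefSeq start overlapped in 8.87% of cases (33 of 372), against 2.32% of the others. Of those 372, 182 were in the highest quintile of fold, and the part of fold in this difference was not tested. Enzymes of amino acid breakdown and the urea cycle held 37 of the 230, more than any other of the gene lists used.

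**Figure D3:**
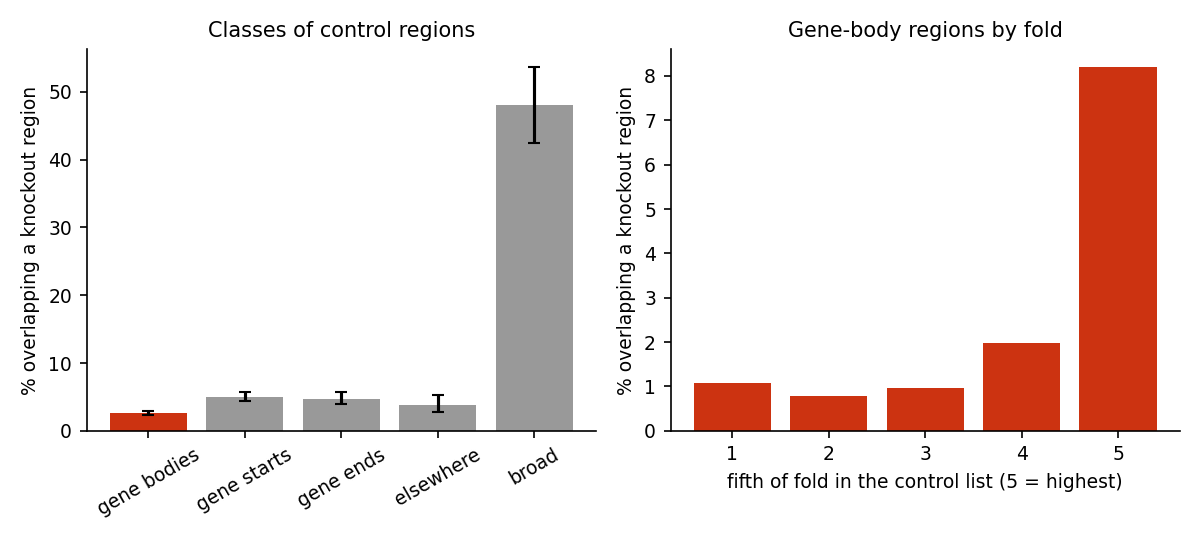
Left, percentage of control regions of each class that share at least 1 base with a knockout region, with 95% exact binomial intervals; right, the same percentage for narrow gene-body regions by quintile of their fold in the control list. Gene-body regions stand at 2.60% overall and at 8.19% in the quintile with the highest folds.

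By gene, and named after the values were seen, Por, the electron donor of the microsomal P450 enzymes, had 8 of its 24 regions in both lists. Cps1, the entry enzyme of the urea cycle, kept 8 of 24, and Slc38a4, an amino acid transporter, kept 6 of 17. Tdo2, which opens tryptophan breakdown, kept 5 of 5. Cyp7b1, Dpyd and Mtus1, for all their regions, kept 0.

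RNA was not used to choose the regions and was compared across all genes, with edgeR's quasi-likelihood test and Benjamini-Hochberg adjustment at 0.05. Library totals ran from 22191786 to 26595249 counts. Med19 itself had 7.501, 10.8 and 13.4 CPM (counts scaled to the size of each library) in controls and 2.91, 5.27 and 3.02 in knockouts, a log2 change of -1.50 ± 0.31 (SE, n = 3 per genotype, edgeR adjusted p = 0.012). The groups did not overlap, though the call was lost without knockout replicate 1. Control replicate 1 stood apart: its counts differed from those of the other controls by a chi-square per degree of freedom of 135 and 129, while control replicates 2 and 3 differed from each other by 6.84 and the knockout pairs by 24.8 to 49.5. The labels do not tie the replicates to different animals. The p-values therefore rest on how much these libraries vary, and that variation may be technical.

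Genes that hosted a narrow gene-body region were lower in the knockout far more often than higher. Of 15135 genes tested 25.5% were called, 12.6% higher and 13.0% lower. Of the 2233 hosts 2183 were tested, and 137 (6.28%) were higher and 533 (24.4%) lower, with a median log2 change of -0.18 against 0.01 over all genes tested. Protein-coding genes without such a region were higher in 14.6% and lower in 11.1%. Without control replicate 1, hosts gave 229 higher and 700 lower. The number of higher hosts fell to 84 without control replicate 2, 68 without control replicate 3, 70 without knockout replicate 1 and 79 without knockout replicate 2, and the number lower fell to 349 without knockout replicate 1.

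The direction is relative to the bulk of genes. Scaled by library size alone, the median over all genes moved from 0.01 to 0.60, 1030 hosts were called higher and 191 lower, and the hosts' median was 0.41, still below that of all genes. Every direction of a gene named below is on the scale that sets the bulk of genes level (TMM factors). With upper-quartile factors, 200 hosts were higher and 457 lower.

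The share of hosts that was lower was larger in genes with more regions, up to 10 to 19, and did not grow further beyond that. Genes with 1 region were lower in 16.0% (163 of 1019 tested), those with 2 to 4 in 25.7%, those with 5 to 9 in 34.8%, those with 10 to 19 in 50.8% and those with 20 or more in 47.3%. The shares called higher were 8.24%, 5.09%, 5.47%, 1.59% and 1.35% in the same order, and the median log2 change went from -0.08 to -0.65. Of the 200 tested hosts with 10 or more regions, 99 were lower and 3 higher. Without control replicate 1 these were 119 and 11. By library size alone, 40 were lower and 47 higher, with a median of -0.02 against 0.60 over all genes.

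**Figure D4:**
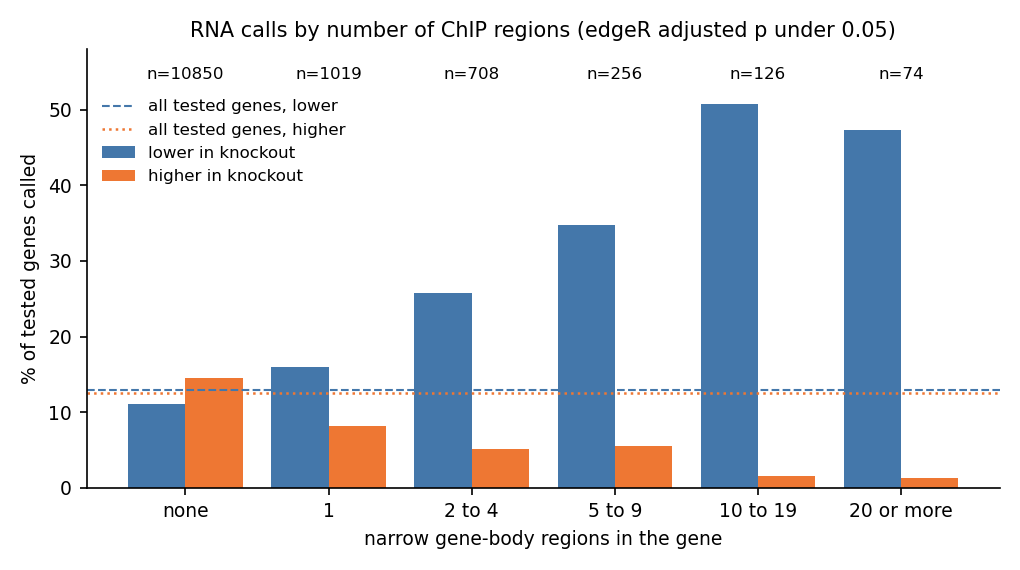
Percentage of tested genes called lower or higher in the knockout (edgeR adjusted p under 0.05) by the number of narrow gene-body regions in the gene; dashed and dotted lines give the shares over all tested genes (13.0% and 12.6%). The lower share rises from 16.0% with 1 region to 50.8% with 10 to 19.

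RNA level and gene length moved with the number of regions. Hosts had a median of 66.0 CPM in the controls and a length of 43.7 kb, against 4.05 CPM and 19.7 kb for protein-coding genes without a region. Among genes of 200 CPM or more in the controls, 49.5% of 489 hosts and 49.6% of 365 other protein-coding genes were lower. From 50 to 200 CPM the shares were 24.1% and 23.3%, and from 10 to 50 CPM 11.9% and 12.1%. The bands were cut on control CPM, which is also the baseline of each change. Differences between bands can therefore be set in part by the cut, which hosts and other genes share within a band. The shares called higher were 3.07% of hosts against 4.66% of the others at 200 CPM or more, 4.80% against 8.55% from 50 to 200 CPM and 8.53% against 10.8% from 10 to 50 CPM. Median log2 changes in the same order were -0.58 against -0.47, -0.21 against -0.15 and -0.04 against -0.04. Shares within a band also differed by number of regions: at 200 CPM or more, 40.5% of hosts with 1 region, 48.9% of those with 2 to 9 and 60.8% of those with 10 or more were lower, and from 50 to 200 CPM 21.3%, 23.9% and 36.5%. RNA level was not equal within the bands, since the median control CPM of these groups was 309, 419 and 478 in the upper band and 85.3, 96.2 and 100.9 in the lower. By length, hosts were lower in 29.1%, 26.7% and 19.2% up to 20 kb, from 20 to 60 kb and above, against 13.1%, 9.69% and 8.64% of other genes. RNA level was far from equal in these length bands. In the same order, median control CPM was 100.3, 83.4 and 47.0 in hosts and 3.605, 6.00 and 2.68 in others, untested genes included. The part of RNA level and length in the gradient was otherwise not tested.

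Hosts whose every region sat at a RefSeq start were called near the background shares of 12.6% and 13.0%. Of the 171 tested, 20 (11.7%) were higher and 21 (12.3%) lower, with a median of -0.04. Their median control RNA was 31.4 CPM, against 66.0 for all hosts. Hosts of 10 to 50 CPM, whatever their regions, were higher in 8.53% and lower in 11.9%, and the part of RNA level was not tested. Of 154 tested hosts with a region found in both ChIP lists, 8 were higher and 39 lower. Those shares were 5.20% and 25.3%, against 6.36% and 24.4% of hosts with none. RNA level was unlike in these groups, with a median of 198.7 CPM in controls against 62.5, so like shares do not compare like genes. Of the 13 hosts with 3 or more such regions, 1 was higher (Fads3) and 4 lower (Cps1, Slc38a4, Tdo2 and Glud1). Slc38a4 (-0.73) did not pass by library size alone.

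The gene with the strongest region was not called. Klf10, a Krüppel-like transcription factor induced by growth factors, had a region of 1078 bp at chr15:38298886-38299963 with a fold of 22.6, 1.46 kb from its 5' end, and the knockout list overlapped it with a fold of 12.2. Its RNA was 39.7, 40.5 and 43.5 CPM in controls and 29.9, 27.8 and 11.5 in knockouts. The groups did not overlap, but the change of -0.84 ± 0.33 did not pass (edgeR adjusted p = 0.106). It passed by DESeq2 and without knockout replicate 3.

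Of the genes with the next 9 strongest regions, 3 were called higher and 1 lower. Tsc22d1, a leucine-zipper regulator, rose from 28.6, 61.6 and 74.2 CPM to 261, 288 and 269, a log2 change of 2.32 ± 0.33 (edgeR adjusted p = 0.00398). Its single region (chr14:76504395-76504744, fold 17.9) sat at the inner start shown above, 89.6 kb from the outermost 5' end. Per1, a repressor of the circadian clock, had 97.3, 72.0 and 63.0 CPM in controls and 143, 134 and 98.1 in knockouts (0.69 ± 0.20, edgeR adjusted p = 0.0406). The lowest knockout library was only just above the highest control, and the call was lost without control replicate 2 or 3 or knockout replicate 1 or 2. Ulk1, a kinase that starts autophagy, had 147, 168 and 160 against 250, 185 and 227 CPM (0.48 ± 0.14, edgeR adjusted p = 0.0382), a call lost without control replicate 2 or 3 or knockout replicate 1 or 3. Eef1a1, which carries aminoacyl-tRNA to the ribosome, fell from 4156, 4348 and 4440 CPM to 2685, 3105 and 2404 (-0.66 ± 0.13, edgeR adjusted p = 0.00849), and did not pass by library size alone. Reads of its processed copies could be split, so its level is uncertain.

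The other strong regions lay in genes whose RNA was not called. Hnrnpu, a nuclear RNA-binding protein, had a log2 change of -0.44 and Adk of -0.20, while both had positive values by library size alone. Pnrc1, a nuclear receptor coactivator, had 315 CPM in control replicate 1 against 134 and 134 in the other controls. H3f3b, which encodes histone H3.3, likewise had 378 CPM there against 143 and 148, and 206, 205 and 211 in the knockouts. Without control replicate 1 its change was 0.51, with an edgeR adjusted p of 0.00457, in place of -0.11. Ano2, a calcium-activated chloride channel, was all but silent at 0.0312 to 0.292 CPM and was not tested, yet its region at chr6:125876747-125877267 had a fold of 20 in the control list and 9.14 in the knockout list.

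Among the 5 genes with the most regions, 1 was called. Mtus1 fell from 208, 244 and 237 CPM to 136, 153 and 118 (-0.76 ± 0.13, edgeR adjusted p = 0.00616), a call lost by library size alone. Cyp7b1 had 248, 295 and 256 CPM in controls and 50.4, 134 and 29.8 in knockouts. Those groups were far apart, but the spread of the knockouts left the change of -1.90 ± 0.55 just short (edgeR adjusted p = 0.0505), and it passed by DESeq2 and without knockout replicate 2. In Zbtb16 the groups overlapped, with 36.2, 141 and 112 against 45.2, 48.9 and 12.8 CPM. Adk had 523, 513 and 480 against 421, 453 and 448 CPM, and Dpyd 417, 406 and 405 against 319, 331 and 358. Neither passed on the TMM scale, while by library size alone both passed as higher, with changes of 0.39 and 0.31 (edgeR adjusted p = 0.0163 and 0.0492).

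The largest falls were in genes with 1 to 18 regions. Slco1a1, an organic anion transporter with 7 regions, fell from 163, 337 and 360 CPM to 4.07, 8.32 and 6.48 (-5.51 ± 0.43, edgeR adjusted p = 0.000554). Igfbp2, an insulin-like growth factor binding protein, went from 1199, 721 and 679 to 41.7, 44.7 and 20.4. C8a, a chain of the complement attack complex with 18 regions, went from 836, 909 and 846 to 36.0, 86.9 and 23, a change of -4.15, or -4.89 without knockout replicate 2. Sult2a8, a sulfotransferase with 10 regions, changed by -4.18 (edgeR adjusted p = 0.0204), by -5.31 without knockout replicate 2, and lost its call without any 1 control or without knockout replicate 1. Hsd3b5, a steroid dehydrogenase with near-identical paralogues, had 11.9, 217 and 230 CPM in controls and 0, 1.08 and 0 in knockouts. Its call was lost without control replicate 3 or any 1 knockout library, and its fitted change of -8.71 was -14.9 without knockout replicate 2. Without the filter on low counts, Hsd3b5 and Sult2a8 did not pass.

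The 5 largest rises were in hosts with 1 to 3 regions, and the median over all hosts was 2. Zfr2, a zinc-finger RNA-binding protein with 1 region, went from 0.731, 1.62 and 0.700 CPM to 25.9, 32.8 and 20.5, a log2 change of 4.68 ± 0.35 (edgeR adjusted p = 0.000371). The replication histone genes Hist1h2be (3.74) and Hist1h1d (3.51) also rose, with regions 62 and 151 bp from the RefSeq starts H2bc6 and H1f3, and near-identical histone genes could share their reads. Fads3, of the fatty acid desaturase family, rose from 19.5, 9.44 and 11.6 CPM to 95.9, 87.1 and 123, and all 3 of its regions overlapped the knockout list. Usp2, a clock-related ubiquitin protease, rose by 3.24, but knockout replicate 3 had 15.4 CPM against 102 and 83.3, and the call was lost without any 1 control, or without knockout replicate 1 or 2, or without the filter on low counts. Of the hosts with 10 or more regions the 3 that rose, named after their values were seen, were Zmiz1, a transcriptional coregulator (0.81), Smad7, an inhibitor of TGF-beta signalling (0.77), and Trak1, an adaptor of mitochondrial transport (0.54). Smad7 lost its call without control replicate 3 or any 1 knockout library, and Trak1 without control replicate 3 or knockout replicate 1.

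**Figure D5:**
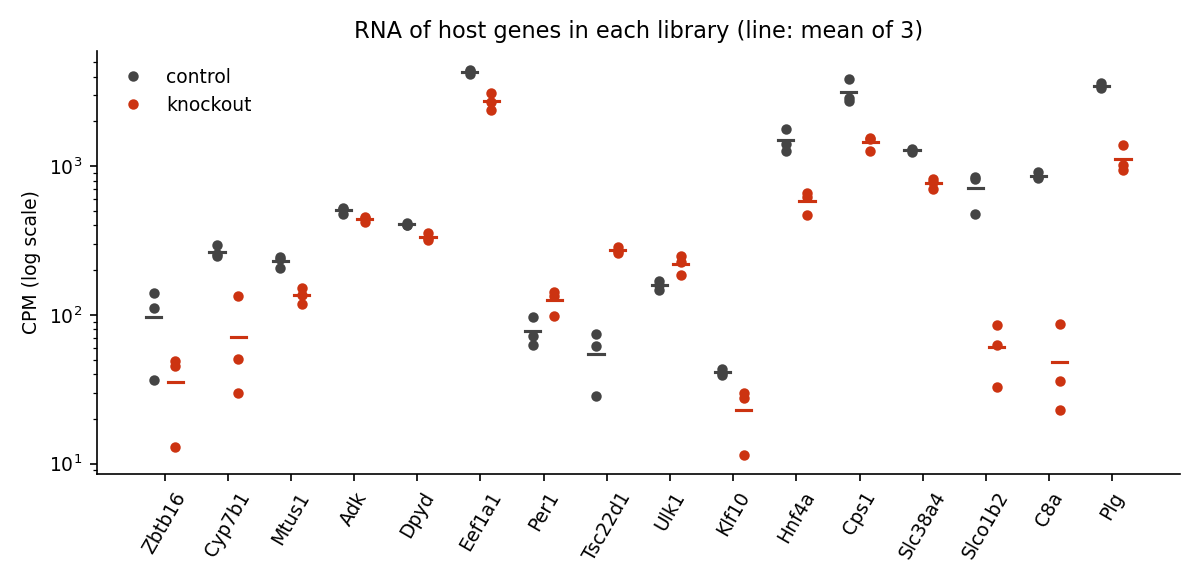
CPM (log axis) of 16 host genes in each of the 3 control and 3 knockout RNA libraries, with a line at each group's mean. C8a, Slco1b2 and Plg separate widely, while Adk and Dpyd differ little and Zbtb16 overlaps.

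By function, the host genes were counted in lists of genes, and those counts stand beside the 12.6% called higher and 13.0% called lower of all tested genes. Whole lists, including genes without a region, were counted too. Of 46 plasma protein genes tested 36 fell and 1 rose, and of 41 drug metabolism genes 31 fell and 2 rose. Of 40 lipid genes 17 fell and 2 rose, of 35 amino acid genes 13 and 2, and of 30 hepatocyte transcription factors 11 and 1. The falls in these lists were therefore not particular to hosts. Of 47 plasma protein, coagulation and complement genes, 24 were hosts with 190 regions, and 0 of the 24 rose and 19 fell. Plg, plasminogen, held 21 regions and went from 3605, 3458 and 3381 CPM to 1021, 1381 and 942. Apob, the core protein of very-low-density lipoprotein, fell from 4576, 3729 and 3752 to 2314, 2533 and 2324 CPM, a call lost by library size alone. Of the drug metabolism genes 26 were hosts, of which 20 fell and 1, the flavin monooxygenase Fmo1 (0.54, lost without control replicate 3), rose. Adh1, alcohol dehydrogenase, went from 657, 1413 and 1533 CPM to 374, 345 and 376. Scaled by library size alone, the plasma protein hosts gave 3 higher and 11 lower, and the drug metabolism hosts 3 and 15.

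Lipid, cholesterol and bile acid genes held 302 regions in 28 hosts, of which 13 fell and 1, the fatty acid elongase Elovl6 (1.68), rose. Slco1b2, a bile acid and drug uptake transporter with 30 regions, went from 478, 819 and 853 CPM to 62.8, 86.1 and 32.5 (-3.57 ± 0.42, edgeR adjusted p = 0.00219). Scp2, sterol carrier protein 2, went from 4008, 4375 and 4178 to 1088, 1374 and 940 CPM. Cpt1a, the gate of mitochondrial fatty acid oxidation, held 32 regions with a change of 0.12 that did not pass (edgeR adjusted p = 0.767) and turned negative without control replicate 3 or knockout replicate 2. This list gave 8 higher and 10 lower by library size alone.

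Genes of amino acid breakdown and the urea cycle held 234 regions in 23 hosts, of which 8 fell and 1, Bckdha of branched-chain amino acid breakdown (0.55, lost without control replicate 3 or knockout replicate 1), rose. The list gave 10 lower and 3 higher without control replicate 1. Cps1 fell from 3859, 2883 and 2744 CPM to 1270, 1536 and 1543. Got1, the cytosolic aspartate transaminase, with 11 regions, had 688 CPM in control replicate 1 against 257 and 233 in the others and 600, 565 and 526 in knockouts. Its change of 0.52 did not pass with that library and passed without it, at 1.198. The counts were 8 higher and 4 lower by library size alone.

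Of 30 hepatocyte transcription factors 22 were hosts, with 181 regions, and 0 rose and 8 fell, among them Hnf4a (20 regions), a nuclear receptor that maintains hepatocyte identity, from 1783, 1417 and 1276 CPM to 619, 660 and 472 (-1.35 ± 0.18, edgeR adjusted p = 0.00224). Onecut1 (14 regions, -1.75) and Foxa1 (1 region, -1.57) fell too. Zbtb20 held the most regions of the list, 57, with a change of 0.15 that did not pass and was -0.0080 without control replicate 1 and -0.05 without knockout replicate 2. Without control replicate 1 the list gave 13 lower and 1 higher, without control replicate 3 it gave 4 lower, without control replicate 2 or any 1 knockout library 5, and by library size alone 3 and 3. Of 17 nuclear receptor and coregulator hosts 4 fell, including Rxra (-1.18), the shared partner of many receptors. Without control replicate 1, 7 of them fell, and without any other 1 library 2 fell. By library size alone 9 rose and 1 fell. Ppara, the fatty acid sensor, held 33 regions and its groups overlapped at 55.3, 105 and 95.01 against 51.8, 70.2 and 40.4 CPM. Its change of -0.65 did not pass, but did without control replicate 1.

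Chromatin and RNA polymerase II machinery held 51 regions in 13 hosts. The quasi-likelihood test of edgeR called 0 of these higher and 0 lower, and their median log2 change was 0.01. With 13 hosts, few calls would be made at the shares of all genes, 12.6% and 13.0%. The whole list of 32 genes gave 2 higher and 0 lower, so the lack of falls was not particular to hosts. Without control replicate 1, 1 host was called higher and 0 lower. Of the 13, 2 had an unadjusted p under 0.05, and DESeq2 called 0. Smarca2, a remodelling ATPase, held 12 regions with a change of 0.41 that passed only with upper-quartile factors, by library size alone or without the filter. By library size alone 10 of the 13 were higher, as the median of all genes moved by as much. No test of the difference between these lists was made.

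Gluconeogenesis and glucagon signalling held 130 regions in 17 hosts, of which 4 fell and 1 rose, or 4 and 4 without control replicate 1. Those that fell were Aqp9, the glycerol channel (20 regions, -1.32), Pcx, pyruvate carboxylase (9 regions, -0.39), Gcgr, the glucagon receptor (2 regions, -0.90), and Gk, glycerol kinase (1 region, -1.16), and the 1 that rose was Per1. The fall of Pcx was weak: it was lost with upper-quartile factors, without the filter on low counts, without control replicate 2 or 3 and without any 1 knockout library. Foxo3, a transcription factor that insulin restrains, held 32 regions and had a change of 0.40 that did not pass, though it passed with upper-quartile factors, by library size alone, without the filter and without knockout replicate 3. Insr, the insulin receptor, held 18 and did not pass (-0.29, or 0.30 by library size alone). By library size alone the list gave 11 higher and 2 lower, with Pcx at 0.21 and Gcgr at -0.31, neither of which passed. In the immediate early, stress and clock list 17 hosts held 31 regions, and 3 fell and 1 rose. Leaving out control replicate 1 gave 4 falls and 3 rises, leaving out any other 1 library gave 0 rises, and library size alone gave 2 falls and 2 rises. Dbp, a clock output factor whose region overlapped the knockout list, had 0.195 CPM in control replicate 1 against 9.63 and 10.1 in the other controls, and 64.1, 59.0 and 10.3 in knockouts. This list's median was -1.15 with all libraries and 0.02 without control replicate 1, and 1 fell without knockout replicate 1 or 3.

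In the cytoskeleton, adhesion and matrix list 10 hosts held 62 regions, 35 of them in Fn1, fibronectin, which hepatocytes secrete and which fell from 3919, 2553 and 2385 CPM to 1425, 1505 and 1206. Of the 10 hosts 3 fell and 1 rose, and 1 fell without control replicate 2 or 3 or knockout replicate 1 or 3. The counts were 3 higher and 2 lower without control replicate 1, and by library size alone 7 higher and 1 lower. Among markers of other liver cells, 0 of 8 macrophage, 0 of 6 stellate and 0 of 4 bile duct markers were hosts. The same count was 0 of 3 for T and B cells, and of 6 endothelial markers Stab2 held 3 regions and Kdr 2. Of 6 hepatocyte markers 2 were hosts, and so were 13.0% of all protein-coding genes. With so few markers, these counts do not set the cell types apart. Macrophage marker RNA moved with genotype. The 8 macrophage markers summed to 274 to 356 CPM in controls and 609 to 742 in knockouts, and 7 of the 8 were called higher. Of the other cells' markers, 1 of 6 endothelial and 1 of 6 stellate markers were called higher, and of the 4 bile duct and 3 T and B cell markers 0 were called. The 6 hepatocyte markers, which include Cps1 and Hnf4a, summed to 95200 to 98830 CPM in controls and 23570 to 31820 in knockouts, and all 6 were lower. No marker of these lists was at 0 in all libraries. The part of the cell make-up in the falls of host genes was not tested, and fewer cells of a type and less RNA per cell cannot be told apart here.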

How the data were processed

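ChIP peaks were deposited by the authors as 1 narrowPeak list per library on mm10, and the submitters' processing notes list MACS2, BWA, SAMtools, DESeq2 and deepTools with no version. Each row holds a deposited score, a fold over background (ratio), and a -log10 p-value and -log10 q-value. The use of an input library is not stated in these sources. The authors' RNA table holds raw counts per Ensembl gene, and the submitters' processing notes name HTSeq 0.6.0, HISAT2 2.1.0 and Bowtie2 2.2.3. Whether counting used strand is not given, so reads of overlapping genes cannot be separated. The same deposited table holds a mean normalised signal, a fold change, a log2 fold change and p-values of the authors' own comparison, which were not used here.

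Rows with the same start and end were joined into 1 region (22793 rows, 16995 regions), and a gene's 5' and 3' ends were taken from the RNA table. Counts were tested with edgeR 4.0.16 in R 4.3.3 (filterByExpr with minimum count 10 and total 15, TMM, robust quasi-likelihood fit, two-sided, Benjamini-Hochberg over 15135 genes, threshold 0.05). CPM values use TMM-scaled library sizes. Scripts were tested on simulated data.

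The members, the 16 gene lists and the tests were chosen with earlier results of these data known. Genes were named by a rule: the 10 strongest regions, the 5 hosts with the most, up to 6 regions in both ChIP lists, the 5 largest rises and 5 largest falls among hosts (5 CPM or more, groups apart) and the 2 strongest hosts of each list; other list members were named after their values were seen. Sequences were planned as windows around summits, but no genome was used here, so RefSeq promoter windows (GRCm38.p6, 250 bases before and 50 after a start) near summits took their place; 1756 of the 2233 hosts matched by symbol. Some genes that these rules take are left unnamed. Date-like gene names (23) were restored from gene IDs. Alternatives were other scalings, no filter, DESeq2 1.42.0, a replicate block, each library left out, stricter peaks and other overlap rules.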

Additional observations from a re-analysis of the deposited data

How the results depend on the processing

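With 3 libraries per genotype and 1 ChIP library each, the ChIP overlap has no replicate check. Over all genes, 3865 were called, 8328 by library size alone and 2236 to 4921 with 1 library left out. With 1 library left out, hosts called higher ranged from 68 to 229 and lower from 349 to 700, and for hosts of 10 or more regions from 1 to 11 and 76 to 119. By library size alone hosts gave 1030 higher and 191 lower, and hosts of 10 or more regions 47 and 40. For those, higher calls were 9 with upper-quartile factors, 6 without the filter and 5 by DESeq2. Taking regions of -log10 q 5 or more left 44 hosts higher and 295 lower of 954 tested. The share in the knockout list was 1.01% where 50% of the region had to be covered, 6.86% for -log10 q of 5 or more and 1.69% under 1000 bp wide; it was 2.60% for summits within 500 bp and 2.45% beyond 2000 bp from a 5' end. The replicate numbers did not pair the libraries: the correlations of same-numbered libraries were 0.11, 0.05 and 0.09, and a fit with the replicate block called 3468 genes, 131 hosts higher and 508 lower, and 4 and 99 among hosts of 10 or more regions. With it Cyp7b1 (-2.18) and Kdr (0.63) passed, and Ulk1 (0.47), Usp2 (2.90) and Pcx (-0.38) did not. By library size alone the changes of Hnrnpu (0.15), Adk (0.39), Pnrc1 (0.20), H3f3b (0.51), Dpyd (0.31), Creb3l3 (0.37), Nr2f2 (0.47), Pcx (0.21) and Insr (0.30) turned positive. With 1 library left out, Pnrc1 ranged from -0.6918 to 0.1155, H3f3b from -0.3527 to 0.507, Arid1b from -0.1254 to 0.1605, Cpt1a from -0.0703 to 0.4377, Zbtb20 from -0.0522 to 0.2636 and Stab2 from -0.0783 to 0.2427, and H3f3b was 0.0588 with the replicate block. RLE scaling kept all 64 named genes on their side of the threshold, and the cause of the other changes was not tested.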

Other observations

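The narrow gene-body regions overlapped 14 of 1228 RefSeq miRNA hairpins, and any control region overlapped 74. The rule removes regions near any annotated gene's 5' end, so these counts cannot be set against each other. Among the 14 were Mir26a-2 in Ctdsp2, under a region with a fold of 4.39, and Mir3064 in Ddx5 (3.79). Mir3073a and Mir3073b in Aspg lay under 1 region with a fold of 7.88. The knockout list had 629 regions that met the same width and position limits. Of these, 241 overlapped a narrow gene-body region of the control, 551 overlapped any control region and 78 overlapped none. Of the narrow gene-body regions 169 had a summit in more than 1 protein-coding gene and 444 lay under another annotated gene of any kind.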
